A study of Rattus norvegicus with 57 samples.

Results

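The change of the 1 mg/kg cisplatin effect on rat kidney cortex between days 8 and 26 was measured per gene in 19 of the 57 animals of the series. For each of 11683 genes it is the difference in mean log2(signal + 16) between 1 mg/kg and control rats on day 26, minus the same difference on day 8. A negative value means that the gene lay lower, relative to its control, on day 26 than on day 8. The 4 groups, read from the sample titles, were 1 mg/kg on day 26 (5 rats), control on day 26 (4 rats), 1 mg/kg on day 8 (5 rats) and control on day 8 (5 rats). All were male Han Wistar rats, 8 weeks old, given a single intraperitoneal injection of cisplatin in saline, or of saline alone for the controls. Each rat was killed on its day and its cortex-enriched kidney RNA was hybridised to its own Affymetrix Rat 230 2.0 array, so the days compare different animals. The design text gives 6 rats per group. The 3 mg/kg groups of days 26 and 8 (5 rats each) were used for a comparison of doses, and days 3 and 5 to define gene sets. All 57 arrays entered the fit that estimated the spread.

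Cisplatin is a platinum compound that crosslinks DNA and is taken up mainly by proximal tubule cells, where it causes a dose-dependent injury. DNA damage activates p53, which induces cell cycle inhibitors such as Cdkn1a and its own ligase Mdm2. Damaged tubule cells make more Havcr1, Spp1, Clu and Lcn2, which are used as kidney injury markers. Stress also induces immediate early transcription factors such as Fos, Egr1 and Atf3. When an injury heals these transcripts decline, and where it does not, matrix genes of fibroblasts can stay high. The comparison asks how far the response to the lower dose had moved back towards control by the last day.

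The arrays had been scaled to a common level, and the median signal ran from 20.5 to 24.9 over the 19. Arrays of the same group correlated at 0.986 to 0.993. The actin 3'/5' signal ratio, which increases as RNA degrades, was 4.65 to 5.29 in 1 mg/kg rats and 4.47 to 5.73 in control rats on day 26. On day 8 it was 8.58, 6.01, 4.52, 5.87 and 5.45 in replicates 1 to 5 of the 1 mg/kg group and 4.73 to 5.90 in the controls. Markers of cortex were present in every group. The summed signal of 43 of 50 listed proximal tubule transporters was 50351 to 54966 in 1 mg/kg rats and 48868 to 56864 in control rats on day 26, and 44777 to 52344 in 1 mg/kg rats and 48495 to 52879 in control rats on day 8. The 3 measured adrenal markers of 11 summed to at most 35.9 in any of these animals. No measured marker was at 0 on any of the 19 arrays, adrenal and liver markers included, so the absence of 0 does not tell tissues apart.

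No gene passed an adjusted p of 0.05 for the change of the effect (0%, limma with Benjamini-Hochberg adjustment over 11683 genes). At an unadjusted p under 0.05, 253 genes were higher and 469 lower, 6.18% of the genes tested. Spp1, which encodes the secreted phosphoprotein osteopontin, came closest. Its signals were 678, 567.8, 474, 571 and 356 in the 1 mg/kg rats and 753, 418, 769 and 831 in the controls of day 26, and 3000.3, 1714, 4219, 1399.8 and 2524 in the 1 mg/kg rats and 931, 419.5, 779, 635 and 794 in the controls of day 8. The treated rats of day 8 stood above all other animals, and on day 26 the groups overlapped. Its change was -2.13 ± 0.42 on the log2 scale (95% interval -2.97 to -1.29, adjusted p = 0.0647). Quantile normalization gave -2.22 (adjusted p = 0.0389), with Ccng1 also passing at -0.60 (adjusted p = 0.0389). Spp1 also passed with the actin ratio as a covariate, and without replicate 2 or 4 of the 1 mg/kg group of day 8, replicate 1 of the control group of day 8 or replicate 2 of the control group of day 26, with adjusted p-values between 0.00518 and 0.0461.

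The same fit found 1 gene higher and none lower in 1 mg/kg rats than in controls on day 26 (0.00856% of the genes tested; 776 at an unadjusted p under 0.05, 6.64%), and 50 genes higher and 11 lower on day 8 (0.522%, with 0.428% higher and 0.0942% lower). The day 8 count depended on single animals. It was 12 without replicate 3 of the 1 mg/kg group, 34 without replicate 1, 127 without replicate 2 and 112 without replicate 4. It was 25 and 20 without replicates 2 and 3 of the controls. With just the compared groups in the fit 4 genes passed on day 8. Among those that no longer did were Spp1 (adjusted p = 0.0519), Cdkn1a, Atf3, Plk2, Havcr1, Fos, Egr2, Mdm2, Phlda3, Nr1d1, Sfrp2, Etv5 and Fhit. In exact permutation tests of the same groups, run for 8 genes, Spp1, Cdkn1a, Atf3, Plk2, Havcr1 and Sfrp2 did pass (adjusted p = 0.0147 each). Between the days, 667 genes differed in the treated rats (285 higher and 382 lower on day 26, 2.44% and 3.27%, together 5.71%), against 149 in control rats (84 higher and 65 lower, 0.719% and 0.556%, together 1.28%). When log2 values were centred on each array's 75th percentile, the treated split was 385 higher and 299 lower. A count of calls in treated rats against one in control rats is no test of their difference. That test is the change of the effect, in which no gene passed.

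Among 29 listed kidney injury markers 27 were measured, and their median difference from control was 0.0096 on day 26 and 0.39 on day 8, against 0.0024 and 0.020 for all genes. On day 8, 5 of them were higher in 1 mg/kg rats by limma (Havcr1, Spp1, Tnfrsf12a, Il24 and Igfbp1), where 0.428% of all genes were, and 25 of 27 lay above control. On day 26 none was called and 14 of 27 lay above control. Lgals3, the lectin galectin-3, was the 1 member whose groups did not overlap there, and it was lower (-0.25 ± 0.15), as 1.41% of all genes were with no overlap. The highest and the lowest day 26 differences of the list, neither past the threshold, were those of Ccn1, a matrix-associated growth factor (1.57 ± 0.38 on day 26 and 0.84 ± 0.36 on day 8), and Tff3, a trefoil peptide (-0.93 ± 0.44 and -0.83 ± 0.41), both named here after their values were seen. Within the treated rats 10 of the 27 fell between the days and none rose (3.27% and 2.44% of all genes), with a median of -0.51. In control rats none was called, and the median was -0.051. The list's median change of the effect was -0.29, with 11 members lower and 1 higher at an unadjusted p under 0.05, where 4.01% and 2.17% of all genes were. All gene lists used here were chosen with earlier results of these data known, so their counts describe the lists only.

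Havcr1, which encodes the proximal tubule injury receptor KIM-1, had signals of 13.6, 5.28, 2.03, 6.17 and 15.02 in 1 mg/kg rats and 4.48, 3.33, 0.772 and 7.41 in control rats on day 26. On day 8 they were 912, 32.4, 1085, 32.9 and 17.6 in 1 mg/kg rats and 4.95, 7.33, 10.2, 5.47 and 1.73 in control rats. Replicates 1 and 3 of day 8 thus carried a signal far above that of the other treated rats, although all treated rats of that day lay above all controls. The difference from control was 0.27 ± 0.66 on day 26 and 2.80 ± 0.62 on day 8 (adjusted p = 0.0178). Without replicate 1 or 3 of the treated day 8 group the day 8 difference no longer passed, at 2.15 (adjusted p = 0.132) and 2.09 (adjusted p = 0.198), nor did it with an offset of 64 or with array weights (adjusted p = 0.0631 and 0.0886). Its change was -2.54 ± 0.91 (adjusted p = 0.644). In exact two-sided permutation tests, adjusted over 24 tests of 8 genes, Havcr1 differed from control on day 8 (exact p = 0.00794, adjusted p = 0.0147, the smallest 5 against 5 allows). It did not pass on day 26 (exact p = 0.222). Because the signals of controls were below the offset of 16, these log2 values understate the ratio of the signals. The 8 genes of the exact tests were chosen with earlier results of these data known. All but Lcn2 were also called on day 8 by limma on the same arrays, so the exact tests are not separate support.

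Clu, which encodes the chaperone clusterin, and Lcn2, the iron-binding protein NGAL, divided the day 8 animals in the same manner. Clu had signals of 167, 176, 176, 169.9 and 195 in 1 mg/kg rats and 169, 179, 164 and 192 in control rats on day 26, and of 1113, 194, 2365, 212 and 211 in 1 mg/kg rats and 166, 173, 165, 157 and 184 in control rats on day 8. Its difference from control was 0.0096 ± 0.40 on day 26 and 1.42 ± 0.38 on day 8, and in limma neither passed (day 8 adjusted p = 0.0638). The day 8 difference passed without any of replicates 2, 4 and 5 of the treated group, at 1.73, 1.70 and 1.70 (adjusted p = 0.0133, 0.0181 and 0.0225). Without replicate 3 it was 0.85 (adjusted p = 0.405), and without replicate 1 it was 1.12 (adjusted p = 0.254). It passed with the actin ratio in the fit as a covariate, at 1.53 (adjusted p = 0.0469). Lcn2 had signals of 30.6, 14.5, 23.8, 16.4 and 21.9 in 1 mg/kg rats and 22.6, 24.03, 19.3 and 28.03 in control rats on day 26, and of 181, 27.3, 229, 32.7 and 28.5 in 1 mg/kg rats and 24.7, 22.5, 28.1, 19.7 and 27.8 in control rats on day 8. Its day 8 difference in limma was 1.08 ± 0.34 (adjusted p = 0.142), 1.32 without treated replicate 2 (adjusted p = 0.0454) and 0.70 without treated replicate 3. In the exact permutation tests Lcn2 passed on day 8 (exact p = 0.0317, adjusted p = 0.0476). It also passed there between the days in treated rats (exact p = 0.0238, adjusted p = 0.0381). In both genes replicates 1 and 3 of the treated day 8 group stood far above the other 3, and on day 26 the treated and control ranges overlapped. Both fell between the days in treated rats, Clu by 1.36 ± 0.38 (adjusted p = 0.0239) and Lcn2 by 1.20 ± 0.34 (adjusted p = 0.0264). The fall of Clu did not pass with just the compared groups, with array weights (-0.82), or without replicate 1 or 3 of treated day 8 (-1.06 and -0.79) or replicate 1 or 3 of treated day 26 (-1.34 and -1.36), and without replicate 3 of day 8 its change of the effect was -0.84, against -1.41 with it. Timp1, a metalloproteinase inhibitor, had a change of -0.91 ± 0.43 (adjusted p = 0.778), with signals of 26.6 to 51.7 in 1 mg/kg and 32.1 to 57.99 in control rats on day 26 and 39.98 to 224 in 1 mg/kg and 23.7 to 59.7 in control rats on day 8. Without replicate 3 of treated day 8 its change was -0.59.

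Replicate 1 of the treated day 8 group had the highest actin ratio of the 19 arrays, 8.58, and replicate 3 the lowest of its group, 4.52, and both carried a high Havcr1 signal. The part of RNA quality in that signal was not tested. The 19 measured macrophage and myeloid markers of 23 summed to 2653 to 3812 in 1 mg/kg rats and 2789 to 3008 in control rats on day 26, and to 3080 to 5542 in 1 mg/kg rats and 3135 to 3512 in control rats on day 8. Within this list Mrc1, C1qa and Lgals3 fell between the days in treated rats, by 0.51, 0.49 and 0.65, where 3.27% of all genes fell. In control rats none of the 19 was called, but 18 were below 0, with a median of -0.14. There 3 were lower at an unadjusted p under 0.05. The part of these cells in the decline of the injury markers was not tested. In whole tissue, fewer cells of a type and less RNA per cell cannot be told apart.

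**Figure D1:**
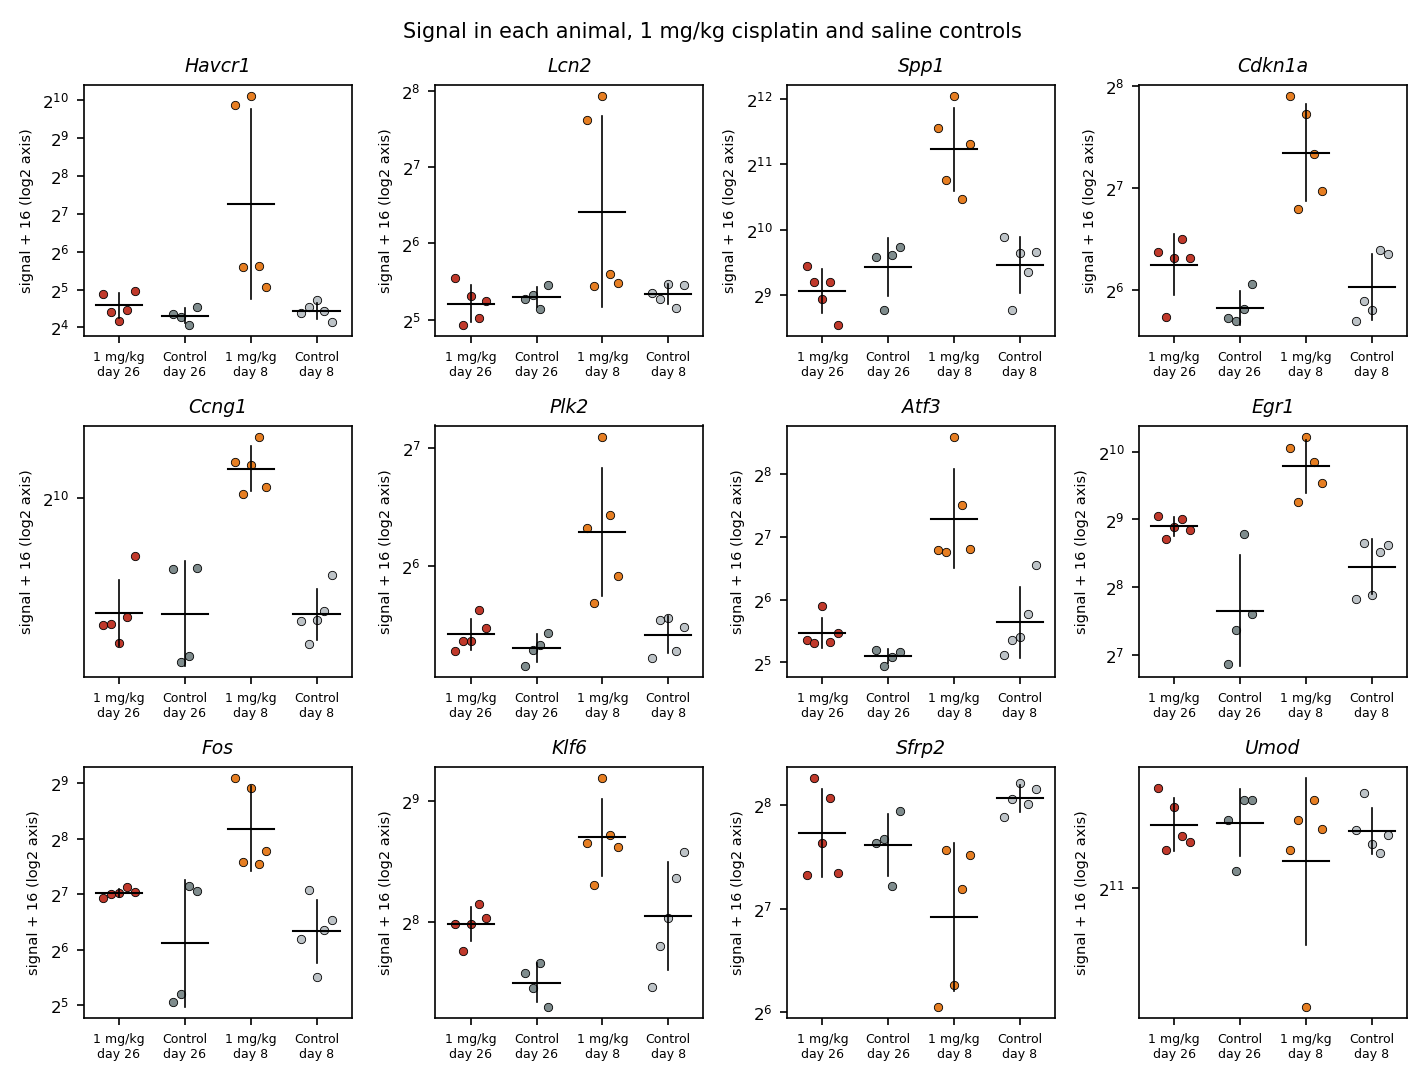
Signal + 16 (log2 axis) of 12 genes in each rat, with 1 point per rat, for 1 mg/kg and control rats on day 26 and 1 mg/kg and control rats on day 8. Horizontal lines are group means of log2(signal + 16) and vertical lines their SD (n = 5, 4, 5 and 5). For Spp1 the treated rats of day 8 lie above all others, for Havcr1 and Lcn2 2 of the 5 stand far above the other 3, and for Egr1 and Fos the treated rats of day 26 lie close together.

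Of 34 listed p53 target genes 24 were measured. Their median difference from control was 0.10 on day 26 and 0.26 on day 8, and the median change was -0.13, below 0 in 20 of 24. On day 8, 6 were called, all higher, where 0.428% of all genes were, and on day 26 none was. The 6 were Cdkn1a, Ccng1, Mdm2, Plk2, Phlda3 and Bbc3. All but Mdm2 also fell between the days in treated rats, together with the death receptor gene Fas (-0.35), where 3.27% of all genes fell.

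Cdkn1a, which encodes the cell cycle inhibitor p21, had signals of 66.9, 37.3, 63.7, 74.6 and 63.6 in 1 mg/kg rats and 36.7, 35.8, 40.2 and 50.5 in control rats on day 26. The signals of day 8 were 224, 94.9, 197, 146 and 109.5 in 1 mg/kg rats and 35.8, 43.4, 39.7, 67.8 and 65.6 in control rats. On day 26 all treated rats but replicate 2 lay above every control, and on day 8 all did. Its difference from control was 0.43 ± 0.20 on day 26 (adjusted p = 0.746 in limma, and exact permutation p = 0.0476, adjusted p = 0.0672). On day 8 it was 1.32 ± 0.19 (adjusted p = 9.54e-05 in limma, and 0.0531 with just the compared groups). The exact permutation test of day 8 passed (exact p = 0.00794, adjusted p = 0.0147). The change was -0.89 ± 0.28 (adjusted p = 0.554).

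Ccng1, which encodes cyclin G1, showed tighter groups. Its signals were 701, 704, 665, 717 and 853 in 1 mg/kg rats and 824, 631, 642 and 825 in control rats on day 26, and 1116, 1019, 1106, 1197 and 1039 in 1 mg/kg rats and 709, 664, 711, 731 and 809 in control rats on day 8. Every treated rat of day 8 lay above every other animal, and the other 3 groups shared a range. The difference from control was 0.0016 ± 0.10 on day 26 and 0.59 ± 0.095 on day 8 (adjusted p = 0.000294), and the change was -0.58 ± 0.14 (adjusted p = 0.186). The 95% interval of the day 26 difference was -0.20 to 0.20, so a difference as large as that of day 8 lay outside it.

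Plk2, a polo-like kinase gene, had signals of 22.9 to 33.3 in 1 mg/kg rats and 19.6 to 27.3 in control rats on day 26, and of 35.4 to 121 in 1 mg/kg rats and 21.3 to 31.1 in control rats on day 8. Its day 8 difference was 0.87 ± 0.14 (adjusted p = 0.000223 in limma, and 0.222 with just the compared groups). It passed the exact permutation test of that day (exact p = 0.00794, adjusted p = 0.0147). Its change was -0.75 ± 0.20 (adjusted p = 0.343). Phlda3, which encodes an inhibitor of the kinase Akt, differed from control by 0.27 ± 0.14 on day 26 and 0.68 ± 0.13 on day 8. Without replicate 3 of treated day 8 Phlda3 and Mdm2 no longer passed on day 8, at 0.59 (adjusted p = 0.068) and 0.31 (adjusted p = 0.113). For Mdm2 the values were 0.13 ± 0.086 and 0.39 ± 0.081, and for Bbc3, which encodes the death-promoting protein PUMA, 0.20 ± 0.10 and 0.49 ± 0.093. Bbc3 was the 1 list member whose groups did not overlap on day 26, with signals of 48.5 to 59.99 in 1 mg/kg and 41.1 to 46.1 in control rats. Over all genes, 2.83% had groups that did not overlap on that day. In Sesn1, a stress-induced sestrin, the change ran the other way (0.35 ± 0.15, unadjusted p = 0.0214, adjusted p = 0.728).

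Promoter windows of 300 bases around the annotated start were read from RefSeq (GRCr8) for 20 of the 24 measured p53 target genes. The p53 half-site is a 10-base motif that reads the same on both strands and was searched on both. It was present in 7 of the 20 genes (35%) and in 7.98% of all 33469 windows. A gene counted if any of its windows held the motif, so its share is not the same measure as the share of windows. Of all 42 matched genes that were higher on day 8, 6 held it (14.3%). Among the 5 matched list members higher on day 8, Cdkn1a and Ccng1 held it. Both are shown because they were called on day 8 and hold the motif. Each is a stretch of 110 bases upstream of the start, written 5′ to 3′ on the gene's strand, with the motif in capitals. The Cdkn1a stretch is chr20:7150682-7150791 on the plus strand, with the motif from -201 to -192 relative to the start. The Ccng1 stretch is chr10:25685017-25685126 on the minus strand, with the motif from -232 to -223. A match describes letters in the window and is no evidence of binding.
Cdkn1a: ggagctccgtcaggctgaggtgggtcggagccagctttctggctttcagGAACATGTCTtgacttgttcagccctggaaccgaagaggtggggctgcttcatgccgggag
Ccng1: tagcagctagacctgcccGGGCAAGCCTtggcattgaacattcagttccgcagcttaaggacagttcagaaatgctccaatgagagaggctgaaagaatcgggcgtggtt

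Most immediate early genes lay above control on both days. Of 29 listed, 28 were measured, with a median difference from control of 0.29 on day 26 and 0.59 on day 8. On day 8, 10 were called, all higher, where 0.428% of all genes were: Fos, Fosb, Junb, Egr1, Egr2, Atf3, Ier3, Klf6, Myc and Gadd45b. On day 26 none was called, yet 23 of 28 lay above control, and in 5 of them the groups did not overlap, all higher (Atf3, Ier2, Ier3, Klf6 and Myc). Of all genes 50.9% lay above control and 1.42% were higher with no overlap. The median change was -0.29, below 0 in 24 of 28. Like the other lists, it was chosen with earlier results of these data known, so the counts describe it only.

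Egr1, a zinc finger transcription factor induced within minutes of a stimulus, had signals of 517, 402, 459, 499.8 and 443 in 1 mg/kg rats and 100.6, 149, 426 and 178 in control rats on day 26. On day 8 its signals were 1045, 595, 1174, 909 and 726 in 1 mg/kg rats and 212, 385, 221, 350.1 and 377 in control rats. On both days the treated group lay above the controls except for replicate 3 of the day 26 controls, which reached into the treated range. Its difference from control was 1.25 ± 0.37 on day 26 (adjusted p = 0.48) and 1.48 ± 0.35 on day 8 (adjusted p = 0.0294). The change was -0.24 ± 0.51 (95% interval -1.27 to 0.79), and without that control it was 0.14. On day 8 Egr1 did not pass without any 1 of control replicates 1, 2 and 3 or treated replicates 1 and 3, with values of 1.37 to 1.57 (adjusted p = 0.0521 to 0.161).

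Fos, which encodes a subunit of the AP-1 transcription factor, had 106, 112, 114, 124 and 116 in 1 mg/kg rats and 17.1, 20.7, 125 and 117 in control rats on day 26, and 530.4, 175, 469, 169 and 203 in 1 mg/kg rats and 57.1, 118, 29.2, 65.6 and 76.4 in control rats on day 8. The controls of day 26 fell into a low and a high pair, and the treated rats lay beside the high pair. Its difference from control was 0.91 ± 0.42 on day 26 (adjusted p = 0.735) and 1.85 ± 0.40 on day 8 (adjusted p = 0.0139; 0.0718 without control replicate 3, 0.0816 and 0.113 without treated replicates 1 and 3, at 1.65, 1.62 and 1.67). The day 26 value was 0.56 without control replicate 1 and 0.61 without replicate 2, and it was 1.26 without replicate 3.

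Atf3, a stress-induced repressor of the same structural class, had 24.98, 23.7, 43.4, 24.2 and 28.3 in 1 mg/kg rats and 20.6, 14.8, 17.9 and 20.1 in control rats on day 26, and 95.4, 92.6, 370.4, 166 and 95.6 in 1 mg/kg rats and 18.6, 24.9, 26.4, 38.5 and 77.6 in control rats on day 8. All treated rats lay above all controls on both days, by a much smaller margin on day 26. Its difference from control was 0.37 ± 0.30 on day 26 and 1.65 ± 0.28 on day 8 (adjusted p = 0.000717; 0.164 with just the compared groups). In the exact permutation test Atf3 was the only gene of the 8 that differed from control on day 26 (exact p = 0.0159, adjusted p = 0.0272, the smallest 5 against 4 allows), whereas in limma it did not pass there (adjusted p = 0.889). Its change was -1.28 ± 0.41 (adjusted p = 0.603).

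Klf6 and Myc were named after their values were seen. Klf6, a zinc finger factor, had 237, 201, 237, 268 and 246 in 1 mg/kg rats and 175, 159.6, 186 and 141 in control rats on day 26, and 386, 301, 567, 405 and 376 in 1 mg/kg rats and 160.4, 206, 245, 313 and 367 in control rats on day 8. The treated rats of day 26 lay above their own controls but within the range of the controls of day 8. Its difference from control was 0.48 ± 0.16 on day 26 and 0.65 ± 0.15 on day 8, with a change of -0.17 ± 0.21. Myc, the growth-promoting transcription factor, differed by 0.57 ± 0.23 on day 26 and 0.87 ± 0.22 on day 8. Ccn1, of the injury list, had 401, 445, 601, 532 and 613 in 1 mg/kg rats and 49.8, 159, 544 and 139 in control rats on day 26 (1.57 ± 0.38, adjusted p = 0.323). Control replicate 3 again lay inside the treated range.

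The CArG box, a 10-base motif bound by serum response factor that reads the same on both strands, was searched on both strands of the same RefSeq windows, of which 4 hold a CArG box that overlaps a p53 half-site. It was present in 5 of 20 matched immediate early genes (25%) and in 4 of all 42 matched genes higher on day 8 (9.52%). Both shares count a gene if any of its windows held the motif. Of all windows, counted singly, 1.64% held it. Among the 6 matched members that were higher on day 8 it was present in Egr1, Egr2 and Klf6. The Egr2 and Klf6 stretches are shown because both genes were called on day 8 and the groups of Klf6 did not overlap on day 26. They are chr20:21054465-21054574 for Egr2, with the motif from -83 to -74, and chr17:69458619-69458728 for Klf6, with the motif from -201 to -192, both of GRCr8 and on the minus strand.
Egr2: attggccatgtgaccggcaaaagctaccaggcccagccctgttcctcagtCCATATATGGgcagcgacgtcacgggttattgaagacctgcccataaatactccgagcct
Klf6: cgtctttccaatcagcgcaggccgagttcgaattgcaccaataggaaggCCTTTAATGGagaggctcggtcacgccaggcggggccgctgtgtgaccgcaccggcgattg

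The 61 genes called on day 8 were read again in the animals of day 26. These animals did not enter the day 8 differences. They did enter the filter and the estimate of the spread behind the day 8 calls, so the choice was not fully separate from them. Of the 50 that were higher on day 8, 38 lay above control on day 26 (50.9% of all genes did), with a median of 0.12. None passed the adjusted threshold, and 13 were higher at an unadjusted p under 0.05, where 3.63% of all genes were. In 6 the treated group was higher with no overlap, where 1.42% of all genes were: Atf3, Bbc3, Capn13, Ier3, Klf6 and Myc. Their day 8 median was 0.63, a description of the values that chose them. Capn13, a calpain protease gene of low signal, was the 1 gene of the 61 whose difference from control was not closer to 0 on day 26 (0.36 ± 0.093 on day 26 and 0.36 ± 0.088 on day 8). Over all genes, 6363 of 11683 were closer to 0 on day 26. The 61 were chosen for their distance from 0 on day 8, so their count is no test of a return to control. Of the 11 that were lower on day 8, 8 lay below control on day 26, with a median of -0.067, and in Cox19, a mitochondrial assembly factor gene, the groups did not overlap (-0.20 ± 0.071).

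Sfrp2, a secreted Wnt antagonist, had the largest fall of the genes called on day 8. Its signals were 144, 291, 182, 253 and 146 in 1 mg/kg rats and 182, 188, 133 and 229 in control rats on day 26, and 50.4, 174, 60.7, 130.02 and 167 in 1 mg/kg rats and 219.6, 251, 279.9, 242 and 268 in control rats on day 8. The treated rats of day 8 all lay below their controls, with replicates 1 and 3 lowest, and on day 26 the groups overlapped. The difference from control was 0.11 ± 0.28 on day 26 and -1.14 ± 0.27 on day 8 (adjusted p = 0.0251), and the change was 1.26 ± 0.39 (adjusted p = 0.554). On day 8 it did not pass in limma without any 1 of control replicates 2 and 3 (-1.15 and -1.11) or treated replicates 1 and 3 (-0.93 and -0.98), with no offset (-1.29) or with array weights (-0.93). In the exact permutation test the day 8 difference passed (exact p = 0.00794, adjusted p = 0.0147), and the treated rats of day 26 against those of day 8 did not (exact p = 0.0794, adjusted p = 0.106).

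The other falls on day 8 were smaller. With just the compared groups in the fit, Ap4s1, LOC102548586, Zdhhc2, Sec11c and Cgrrf1 differed by -0.54, -0.39, -0.35, -0.30 and -0.30, and none passed. With all groups in the fit, none of these genes passed on day 8 without replicate 3 of the treated group. Etv5, an ETS family transcription factor, had a change of 0.76 ± 0.23, where the treated rats differed between the days by -0.10 and the controls by -0.86 (adjusted p = 0.00313). It had signals of 56.4 to 77.6 in 1 mg/kg and 46.9 to 60.5 in control rats on day 26 and 44.3 to 109 in 1 mg/kg and 89.03 to 138 in control rats on day 8. Its probe sets disagree: their mean gave a day 8 difference of -0.17 (adjusted p = 0.435), against -0.63 for the brightest. Without any 1 of control replicates 1, 2, 3 and 5 or treated replicates 1, 3 and 5, Etv5 did not pass on day 8, with values of -0.66 to -0.52. Fhit and Wwox are very long genes that span fragile sites in human. Fhit had a change of 0.44 ± 0.14 and Wwox of 0.49 ± 0.17, and neither passed (adjusted p = 0.608 and 0.644). The median change of the 15 measured very long genes was 0.12, above 0 in 11 of 15.

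**Figure D2:**
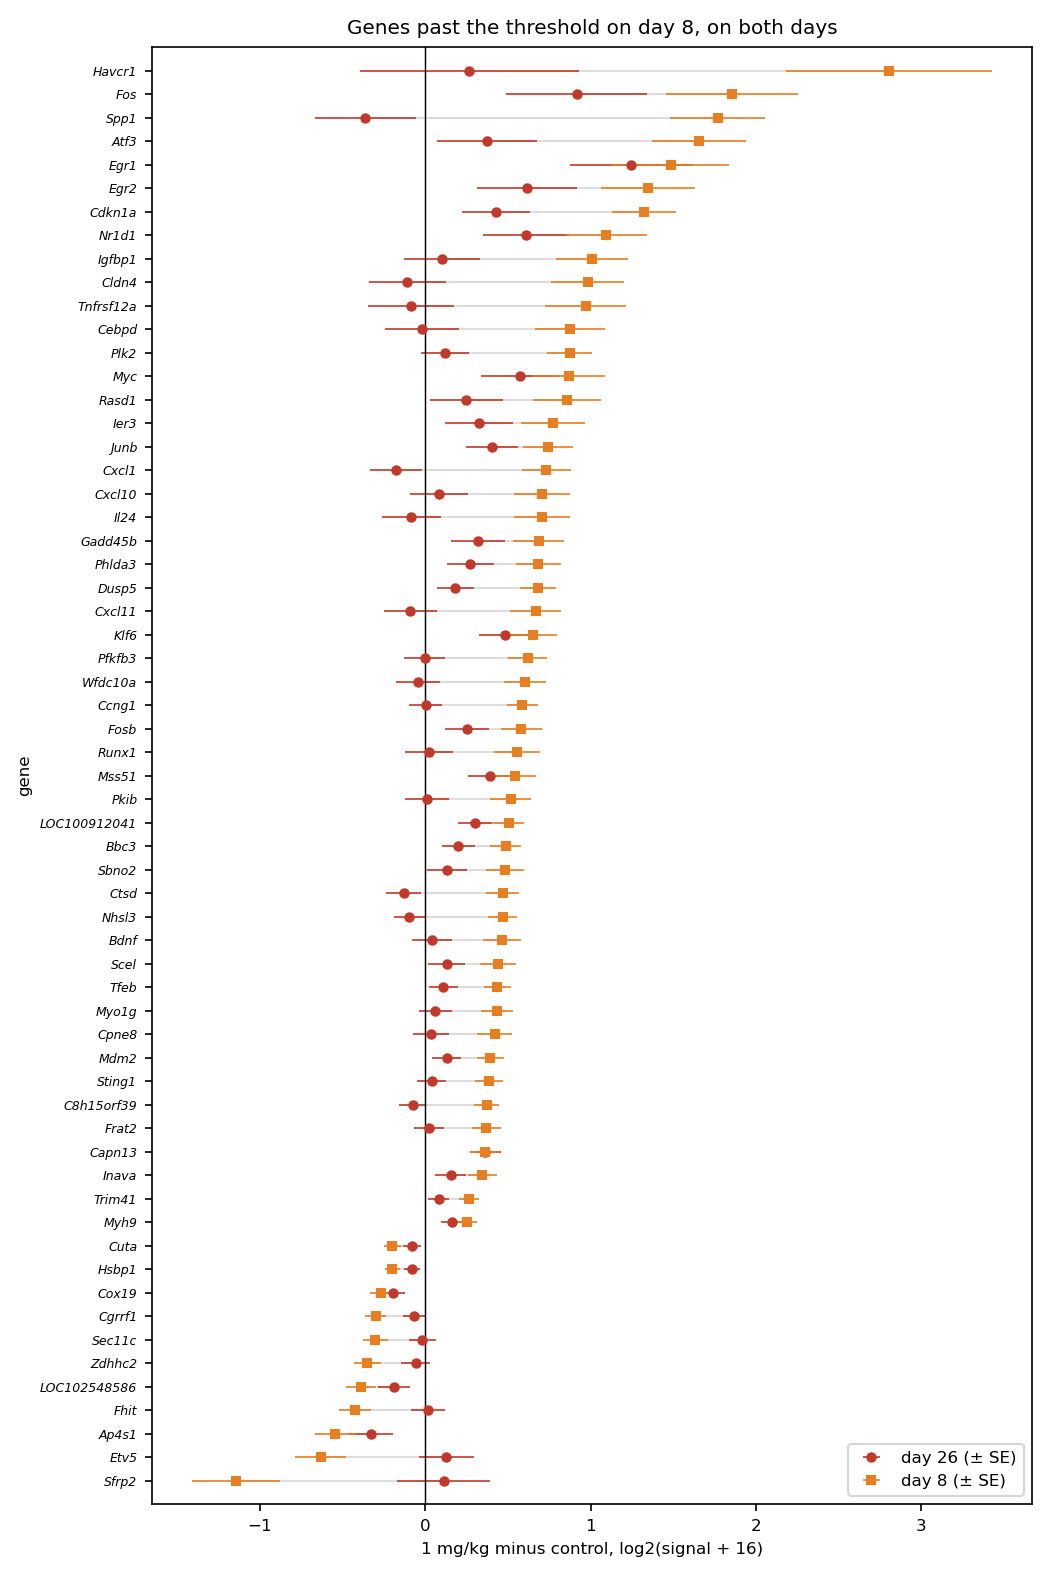
Difference between 1 mg/kg and control rats in log2(signal + 16) for the 61 genes past an adjusted p of 0.05 on day 8, with circles for day 26 and squares for day 8. Bars are the SE of the fit. The squares were chosen by their distance from 0. On day 26, 38 of the 50 higher genes still lie above 0, and Egr1 and Fos lie farthest from it.

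After Spp1, the smallest p-values for the change belonged to genes that did not pass the threshold (adjusted p between 0.186 and 0.343). Nhsl3 had a change of -0.56 ± 0.13, with 89.2 to 114 in 1 mg/kg and 98.8 to 119 in control rats on day 26 and 125 to 138 in 1 mg/kg and 82.8 to 99.1 in control rats on day 8. Ctsd, which encodes the lysosomal protease cathepsin D, had a change of -0.60 ± 0.14. Its signals were 1351, 1317, 1351, 1290.3 and 1491 in 1 mg/kg rats and 1727, 1249, 1216 and 1876 in control rats on day 26, and 2108, 1737, 1970.1, 1599.8 and 2036 in 1 mg/kg rats and 1232, 1420.2, 1326, 1324 and 1491 in control rats on day 8. All treated rats of day 8 lay above all their controls and above all treated rats of day 26. Cxcl1, a neutrophil-attracting chemokine, had a change of -0.91 ± 0.21, on signals of 0.699 to 14.4 in 1 mg/kg and 7.12 to 14.8 in control rats on day 26 and 13.1 to 28.8 in 1 mg/kg and 4.26 to 9.31 in control rats on day 8, most of them under the offset. Rasl10a, a Ras-like gene, and C8h15orf39 followed at -0.54 ± 0.13 and -0.45 ± 0.11.

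In the remaining 3 of these 10 genes the controls moved. Loxl2, which encodes a collagen-crosslinking oxidase, had a change of 0.76 ± 0.18, with 46.8, 43.6, 45.1, 52.5 and 50.6 in 1 mg/kg rats and 31.6, 27.8, 40.5 and 19.96 in control rats on day 26, and 65.7, 34.2, 48.8, 51.1 and 36.6 in 1 mg/kg rats and 51.1, 57.9, 77.9, 59.3 and 51.9 in control rats on day 8. The controls fell between the days by 0.73 (adjusted p = 0.00139) and the treated rats differed by 0.030 ± 0.12. Nprl2, a component of an inhibitor complex of mTORC1, had a change of -0.34 ± 0.081 with a control rise of 0.32 (adjusted p = 0.00246). Sirpa, the myeloid receptor for CD47, had one of -0.61 ± 0.16 with a control rise of 0.47 (adjusted p = 0.0216). Age and day cannot be told apart in the controls.

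Apol3-ps1, whose symbol marks it as an apolipoprotein L pseudogene, was the single gene called on day 26. Its signals were 20.4, 26.5, 23.6, 19.6 and 24.2 in 1 mg/kg rats and 6.16, 14.3, 10.9 and 8.19 in control rats on day 26, and 14.95 to 24.7 in 1 mg/kg and 13.1 to 16.4 in control rats on day 8. The treated rats lay above all controls on day 26, near the offset of 16. The difference was 0.59 ± 0.11 on day 26 (adjusted p = 0.0372) and 0.18 ± 0.11 on day 8. With an offset of 64, with a filter at the 60th percentile, when just the compared groups were fitted, or without any of replicates 2, 3 and 5 of the treated group or 1 and 4 of the controls, no gene passed on day 26.

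Matrix and myofibroblast genes lay above control on day 26, by small amounts. All 34 measured members of 39 lay above control on day 26, with a median of 0.21, against 27 of 34 and 0.090 on day 8, and 50.9% and 0.0024 for all genes on day 26. With centring on the 75th percentile 33 of 34 did. None was called on either day, and the median change was 0.12, above 0 in 22 of 34. In control rats 7 members fell between the days, where 0.556% of all genes did (Col1a1, Col1a2, Col3a1, Col5a2, Loxl2, Fbn1 and Sparc), and in treated rats 4 fell (Col18a1, Fn1, Lox and Mmp14), where 3.27% of all genes did.

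Col1a2, a chain of fibrillar collagen, had signals of 439, 414, 416, 446 and 354 in 1 mg/kg rats and 322, 349, 357 and 283 in control rats on day 26, and 594, 361, 566, 395 and 412 in 1 mg/kg rats and 474, 491, 512, 455 and 441 in control rats on day 8. Its change was 0.37 ± 0.17 (unadjusted p = 0.0316, adjusted p = 0.762), with -0.14 ± 0.12 in treated and -0.52 ± 0.12 in control rats between the days. For Col3a1, another fibrillar collagen and named after its values were seen, the difference from control was 0.33 ± 0.15 on day 26 and -0.0076 ± 0.14 on day 8. Groups overlapped on day 26 for all members but Loxl2, a share close to the 2.83% of all genes. Tagln, a smooth muscle and myofibroblast protein gene, and Bgn, the proteoglycan biglycan, had negative changes. Tagln differed from control by 0.29 ± 0.24 on day 26 and 0.67 ± 0.22 on day 8, and Bgn by 0.13 ± 0.16 and 0.56 ± 0.15.

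Most interferon response and MHC class II genes lay above control on both days. Of 25 measured interferon genes 23 lay above control on each day, with medians of 0.22 on day 26 and 0.18 on day 8. Cxcl10, a T cell chemokine, was the 1 member called on day 8, with signals of 28.3 to 46.96 in 1 mg/kg and 27.7 to 41.1 in control rats on day 26 and 45.1 to 126.4 in 1 mg/kg and 25.9 to 54.3 in control rats on day 8. The 9 measured MHC class II genes had medians of 0.25 on day 26 and 0.21 on day 8, 8 of 9 above control on each day, and none was called. The 11 measured lymphocyte markers of 21 summed to 173 to 289 in 1 mg/kg rats and 127 to 192 in control rats on day 26, and to 171 to 274 in 1 mg/kg rats and 155 to 206 in control rats on day 8. The part of these cells in both lists was not tested.

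**Figure D3:**
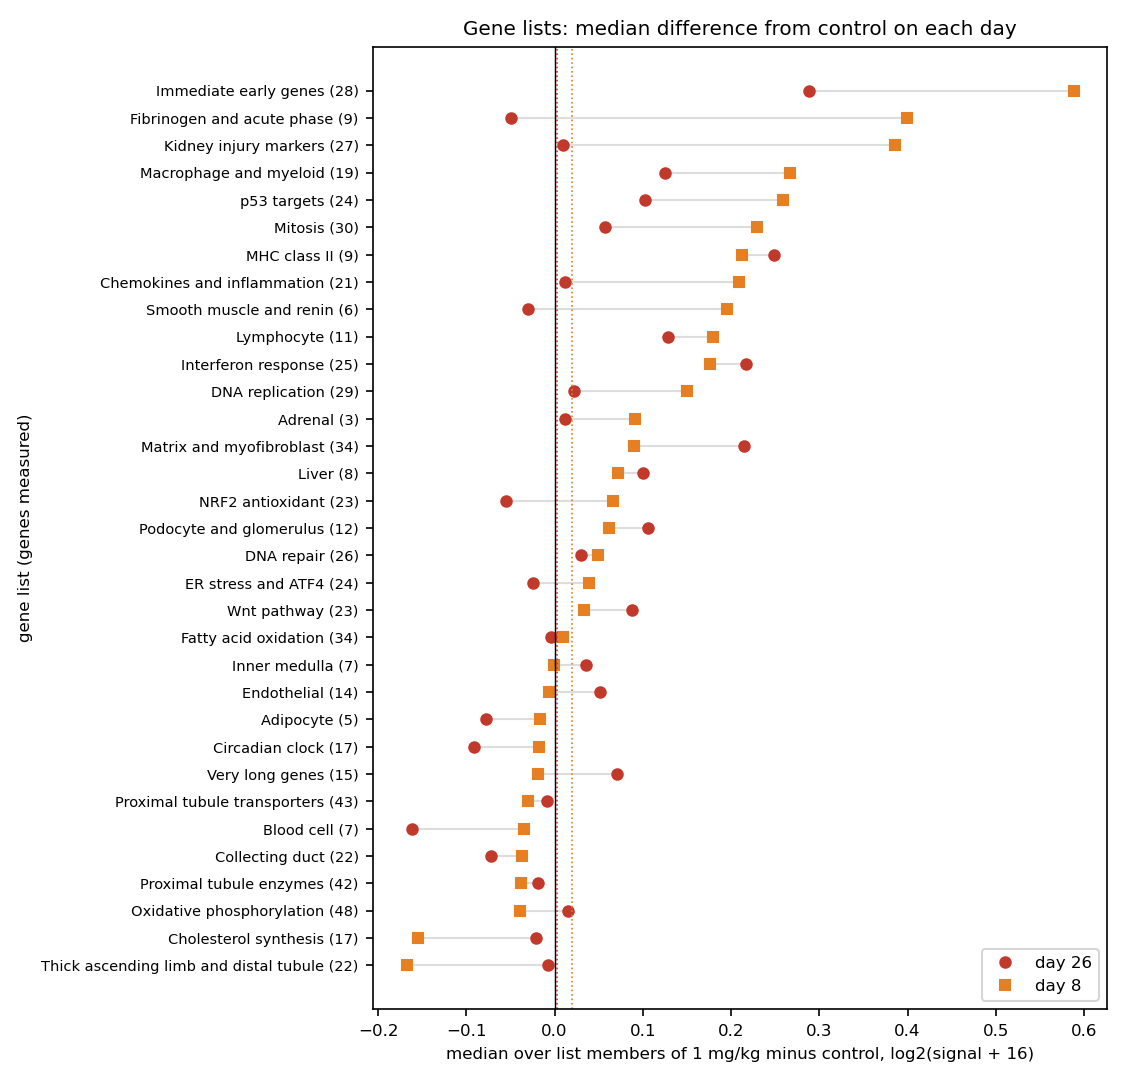
Median over the measured members of each gene list of the difference between 1 mg/kg and control rats in log2(signal + 16), with circles for day 26 and squares for day 8, ordered by the day 8 value. Dotted lines are the medians of all genes. Kidney injury markers lie at 0.0096 on day 26 and 0.39 on day 8, immediate early genes at 0.29 and 0.59, and matrix genes at 0.21 and 0.090.

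Some chemokine and cell division genes fell between the days in treated rats. Of 21 measured chemokine and inflammation genes, Cxcl1, Cxcl10 and Cxcl11 were called higher on day 8, where 0.428% of all genes were. None was called on day 26, and the median change was -0.27. Cxcl1, Cxcl10, Cxcl11 and the regulators Tnfaip3 and Tnfrsf1a fell between the days in treated rats, where 3.27% of all genes fell. The 30 measured mitosis genes had a median of 0.057 on day 26 and 0.23 on day 8, above control in 20 and 28 of 30, with none called on either day. In treated rats 7 of them fell, where 3.27% of all genes did, and the median over the list was -0.37, below 0 in 30 of 30. In control rats none was called, but 26 of 30 were below 0, with a median of -0.23 and 6 lower at an unadjusted p under 0.05. Mki67, which encodes the proliferation antigen Ki-67, had signals of 21.4, 33.7, 35.1, 43.6 and 37.8 in 1 mg/kg rats and 21.7, 42.8, 30.7 and 43.6 in control rats on day 26, and 90.98, 36.4, 100.9, 52.9 and 51.4 in 1 mg/kg rats and 40.7, 36.7, 68.3, 38.9 and 39.997 in control rats on day 8. Replicates 1 and 3 of day 8 were again the highest, and the treated rats fell by 0.66 ± 0.18 (adjusted p = 0.019). Of 29 DNA replication genes 26 had a change below 0 (median -0.11), and with quantile normalization 7 lay above 0. Mcm2, Mcm5 and Mcm6 of the replicative helicase fell in treated rats by 0.42, 0.49 and 0.48, where 3.27% of all genes fell. In control rats none of the 29 was called, but 23 were below 0, with a median of -0.087 and 8 lower at an unadjusted p under 0.05.

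Fibrinogen and acute phase genes had a median change of -0.32 over 9 measured members of 14. The fibrinogen chains Fga, Fgb and Fgg had changes of -0.90 ± 0.41, -0.79 ± 0.38 and -0.81 ± 0.28, none past the adjusted threshold. Fga had signals of 17.6, 21.8, 46.4, 38.7 and 27.3 in 1 mg/kg rats and 42.3, 42.3, 46.9 and 27.4 in control rats on day 26, and 123, 28.9, 142, 34.9 and 32.3 in 1 mg/kg rats and 35.7, 37.98, 32.6, 33.9 and 27.5 in control rats on day 8. Replicates 1 and 3 of the treated day 8 group alone stood above the controls of that day. Of 23 measured NRF2 antioxidant genes none was called against control on either day. Gpx2, Gclm and Gstp1 fell in treated rats by 1.32, 0.59 and 0.57, while the metallothionein Mt1 rose by 0.54. Of all genes 3.27% fell and 2.44% rose in treated rats. In control rats the differences between the days were 0.087 ± 0.42 for Gpx2, -0.55 ± 0.16 for Gclm, -0.35 ± 0.18 for Gstp1 and 0.27 ± 0.14 for Mt1, none past the threshold.

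Tubule and metabolic lists held no called gene against control on either day. The median change was 0.046 for 43 proximal tubule transporters, 0.024 for 42 proximal tubule enzymes and -0.021 for 22 collecting duct genes. It was 0.16 for 22 genes of the thick ascending limb and distal tubule, and 0.16 for 17 cholesterol synthesis genes, of which 15 had a change above 0. The cholesterol genes lay below control in 11 of 17 on day 26 and in 16 of 17 on day 8. The thick ascending limb and distal tubule genes did in 12 and 14 of 22, with medians of -0.0073 and -0.17. On day 8, 3 of the 22 were lower with no overlap, where 0.907% of all genes were. Egf had the largest change of that list, 0.54. Its mean signals were 2969 in 1 mg/kg and 2821 in control rats on day 26, and 2064 (SD 575) and 2767 on day 8. Umod, the gene of uromodulin and a product of the thick ascending limb, had signals of 3258, 2430.3, 2981, 2589 and 2522 in 1 mg/kg rats and 2793, 2201, 3073 and 3077 in control rats on day 26, and 2424, 2796, 1157, 3075 and 2681 in 1 mg/kg rats and 2676, 3177, 2502, 2393 and 2606 in control rats on day 8. Replicate 3 of the treated day 8 group was the single low value, and no difference passed.

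In treated rats alone, the genes that fell most between the days were Havcr1 (-2.67 ± 0.62), Spp1 (-2.17 ± 0.29), Atf3 (-1.82 ± 0.28), the phosphate transporter Slc34a2 (-1.37 ± 0.39), Clu and the peroxidase Gpx2 (-1.32 ± 0.39). Havcr1 and Slc34a2 did not pass without treated day 8 replicate 1 or 3 (-2.02 and -1.96 for Havcr1, -1.004 and -1.005 for Slc34a2), nor did Gpx2 (-1.21 and -1.06). With just the compared groups none of Havcr1, Slc34a2, Clu and Gpx2 passed, and with the actin ratio in the fit Slc34a2 and Gpx2 did not (-1.31 and -1.20). Slc34a2 also failed without replicate 2, 3 or 4 of treated day 26 (-1.29, -1.41 and -1.34). Gpx2 failed without replicate 2 of day 8 (-1.24) or 1, 3, 4 or 5 of day 26 (-1.34 to -1.26). For each of these the control difference between the days did not pass, the lowest adjusted p being 0.387 for Atf3. The largest rises were in Rsrp1 (0.85 ± 0.12), the kallikreins Klk1c9 (0.80 ± 0.24) and Klk1 (0.77 ± 0.20), the splicing kinase Clk1 (0.73 ± 0.12), the clock activator Bmal1 (0.67 ± 0.15) and Rimbp2 (0.61 ± 0.13). Klk1 did not pass without replicate 3 of day 8 (0.50) or 1 of day 26 (0.72), nor Klk1c9 without replicate 2, 3 or 4 of day 8 or 1, 3 or 5 of day 26 (0.61 to 0.82). Neither passed with just the compared groups, and Rimbp2 was 0.35 by the mean of its probe sets (adjusted p = 0.0515). Controls also lay higher on day 26 for all 6, by 0.53 ± 0.13 for Rsrp1 (adjusted p = 0.0261) and, without passing, by 0.48 ± 0.16 for Bmal1, 0.38 ± 0.25 for Klk1c9, 0.37 ± 0.12 for Clk1, 0.31 ± 0.21 for Klk1 and 0.21 ± 0.13 for Rimbp2. Bmal1 had signals of 95.6, 98.3, 101.4, 82.4 and 85.9 in 1 mg/kg rats and 109.96, 103, 99.2 and 107 in control rats on day 26, and 47.9, 49.9, 58.5, 41.8 and 65.7 in 1 mg/kg rats and 78.9, 67.6, 74.9, 80.6 and 53.5 in control rats on day 8. All rats of day 26, treated or not, lay above all of day 8, and the change of the effect was 0.19 ± 0.22. Its repressor Nr1d1 was called on day 8 (1.09 ± 0.24, adjusted p = 0.0182) and not on day 26 (0.61 ± 0.26), and without control replicate 3 of day 8 the value was 0.95 (adjusted p = 0.102). The hour of sampling is not given in the sources used here.

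Among 48 measured oxidative phosphorylation genes, 11 were higher and 1 lower on day 26 than on day 8 in treated rats, and 2 were higher and 1 lower in control rats. Of all genes 2.44% were higher and 3.27% lower in treated rats, and 0.719% and 0.556% in control rats. Their median change of the effect was 0.067, above 0 in 40 of 48, and no member had an unadjusted p under 0.05 for it. Cox5a, a subunit of cytochrome c oxidase, rose in both, by 0.60 ± 0.077 in treated and 0.65 ± 0.082 in control rats, and Ndufs4, a complex I subunit, fell in both, by 0.62 and 0.81.

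The remaining lists are given by their median change of the effect, beside -0.016 for all genes. It was -0.10 for 24 ER stress and ATF4 genes, -0.051 for 26 DNA repair genes, -0.049 for 17 clock genes, 0.015 for 34 fatty acid oxidation genes and 0.058 for 23 Wnt pathway genes. Among cell type markers it was -0.14 for 19 macrophage and myeloid, -0.0013 for 11 lymphocyte, -0.19 for 7 blood cell, 0.049 for 14 endothelial and -0.025 for 12 podocyte and glomerulus genes. For the few measured adipocyte, inner medulla, adrenal, smooth muscle and liver markers it was -0.094 (5 genes), 0.025 (7), -0.056 (3), -0.22 (6) and 0.053 (8). Of these lists only the first, the clock and the Wnt list held a gene called on day 8 (Atf3, Nr1d1 and Sfrp2), and none held one on day 26.

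Gene sets called at 3 mg/kg in other animals, on days that share no array with these 19, were read in these 19. The spread behind those calls was estimated over all 57 arrays, these 19 among them. Of the 620 genes that were higher at 3 mg/kg on day 5, 45.8% lay above control at 1 mg/kg on day 26, with a median of -0.0092, and 77.9% on day 8, with a median of 0.11. For all genes the shares were 50.88% and 57.02%. The change was below 0 for 507 of the 620 (median -0.12), against 6426 of the 11683 (median -0.016). Of the 651 genes that were higher at 3 mg/kg on day 3, 62.8% lay above control on day 26 and 82.3% on day 8. The 500 genes that were lower at 3 mg/kg on day 3 had medians of -0.027 on day 26 and -0.071 on day 8, and the 408 that were lower on day 5 had -0.0031 and -0.026.

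**Figure D4:**
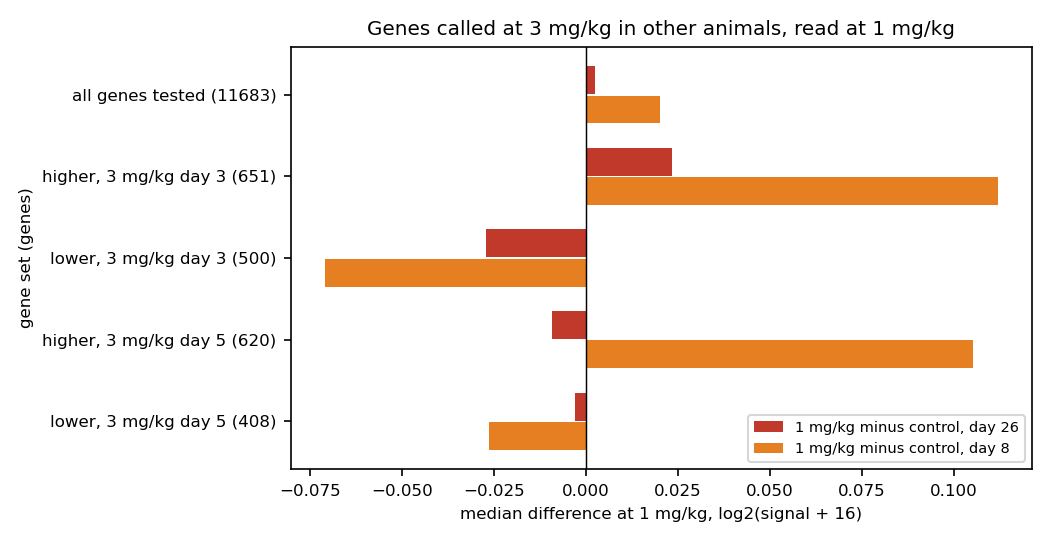
Median difference between 1 mg/kg and control rats in log2(signal + 16), on day 26 (upper bar of each pair) and on day 8 (lower bar), over all genes and over the sets called at 3 mg/kg on days 3 and 5. The sets called on day 5 have medians of -0.0092 and -0.0031 on day 26 and 0.11 and -0.026 on day 8.

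The difference between day 26 and day 8 was then compared between the doses, in treated animals alone, since the controls are common to both doses and cancel. It differed between 3 mg/kg and 1 mg/kg for 1057 genes (582 higher and 475 lower at 3 mg/kg, 4.98% and 4.07%, together 9.05% of the genes tested). Without replicate 2 of the 3 mg/kg group of day 8 the count was 700, and without its replicate 3 it was 1776. Umod had signals of 2719.9, 3033, 3625, 2818 and 3185 in 3 mg/kg rats on day 26 and 785, 2.68, 921, 21.6 and 5.37 on day 8, so that its difference between the days was 4.91 at 3 mg/kg, against 0.25 at 1 mg/kg (4.66 ± 0.74, adjusted p = 5e-05). At 3 mg/kg all day 8 values lay below those of day 26, and at 1 mg/kg the days overlapped. Egf, another product of the thick ascending limb and distal tubule, differed by 2.98 ± 0.51, Ppp1r1a, a phosphatase inhibitor of the same segments, by 2.92 ± 0.49, and the organic anion transporter Slco1a6 by 3.55 ± 0.61. Tff3 and Hnmt, which methylates histamine, differed by 3.22 ± 0.58 and 3.01 ± 0.58.

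The genes that declined more at 3 mg/kg were led by the retinol carrier Rbp4 (-3.46 ± 0.97), the efflux pump Abcc2 (-2.49 ± 0.36), the conjugating enzyme Ugt2b7 (-2.34 ± 0.76), Fga (-1.88 ± 0.40), Clu (-1.86 ± 0.53) and Vnn1 (-1.81 ± 0.32), a pantetheinase. Rbp4 was high in 3 of 5 animals of day 8, with 38.2, 3.97, 34.6, 32.9 and 34.6 in 3 mg/kg rats on day 26 and 37.9, 2445, 6.84, 2511 and 1234 on day 8. Without replicate 2 or 4 of that day its value was -2.80 (adjusted p = 0.0607) and -2.79 (adjusted p = 0.0554). Without any 1 of 9 animals Ugt2b7 did not pass either, with values of -2.38 to -1.94, nor did Clu without replicate 2, 4 or 5 of the 1 mg/kg group of day 8 (-1.58 to -1.55). With just the compared groups Rbp4, Ugt2b7, Clu and Egf did not pass, and with the actin ratio in the fit Ugt2b7 and Clu did not (-1.74 and -1.61). Abcc2 had 64.8, 53.98, 55.4, 65.9 and 54.1 in 3 mg/kg rats on day 26 and 244, 1241, 133, 1035 and 450.2 on day 8, against 59.8, 58.3, 62.7, 67.95 and 70.6 in 1 mg/kg rats on day 26 and 76.8, 57.6, 122, 58.3 and 68.03 on day 8. By list, 14 of 22 thick ascending limb and distal tubule genes were higher at 3 mg/kg and 2 lower. Of 43 proximal tubule transporters 12 were higher and 1 lower. Of 22 collecting duct genes 8 were higher and none lower, and of 34 fatty acid oxidation genes 13 were lower and none higher. Of all genes 4.98% were higher and 4.07% lower.

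The injury list of 27 had 9 members lower at 3 mg/kg (Lcn2, Clu, Krt8, Krt18, Anxa2, Tnfrsf12a, Gpnmb, Lgals3 and Cp) and 1 higher, Tff3. Of all genes 4.07% were lower and 4.98% higher. For Havcr1 the difference between the days was -3.79 at 3 mg/kg and -2.67 at 1 mg/kg, with a dose difference of -1.12 ± 0.88 (adjusted p = 0.477). Spp1 had a difference between the days of -1.55 at 3 mg/kg and -2.17 at 1 mg/kg, with a dose difference of 0.61 ± 0.41 (adjusted p = 0.379). Neither dose difference passed. Ccng1 was the 1 p53 target called, at -0.44 ± 0.13 (adjusted p = 0.0288). Among immediate early genes 5 were higher and 1 lower at 3 mg/kg, against 4.98% and 4.07% of all genes, and Atf3 had a difference between the days of -0.48 at 3 mg/kg and -1.82 at 1 mg/kg (1.34 ± 0.40, adjusted p = 0.0239).

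**Figure D5:**
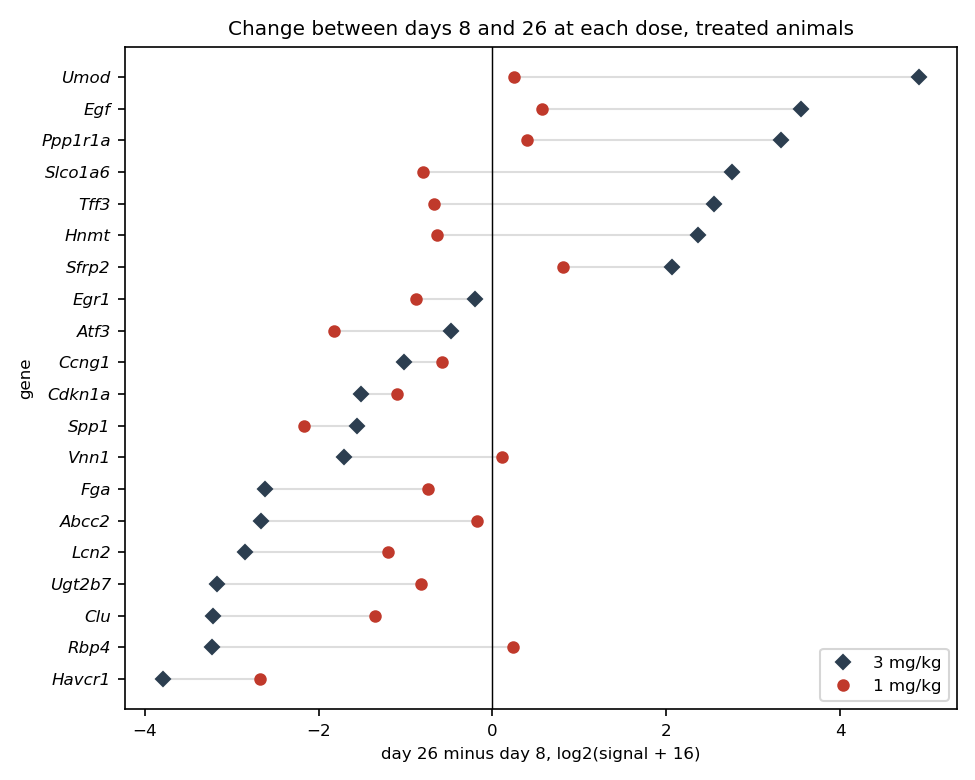
Difference between day 26 and day 8 in mean log2(signal + 16) in treated rats, with diamonds for 3 mg/kg and circles for 1 mg/kg, for 20 genes. Umod lies at 4.91 for 3 mg/kg and 0.25 for 1 mg/kg, Spp1 at -1.55 and -2.17, and Havcr1 at -3.79 and -2.67.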

How the data were processed

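RNA of 57 rat kidney cortex samples was hybridised to Affymetrix Rat 230 2.0 arrays, 1 per animal. The deposited values are linear intensity values of 31099 probe sets, which the authors made, per the submitters' processing notes, with MAS5 (version not given in the sources used here). Arrays share a trimmed mean of about 99.99 (2% cut from each end), so they had been scaled. Groups come from the sample titles. Of the probe sets 57 are controls, 20826 carry 1 gene symbol, 436 several and 9780 none, and 20758 symbols were checked through Entrez identifiers and 2 through accessions.

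A probe set was kept if its signal passed the 40th percentile on at least 3 arrays (21829 kept), and the brightest probe set stood for each of 11683 genes. Values were log2(signal + 16), so changes of dim genes are understated. limma 3.58.1 in R 4.3.3 fitted the means of 12 groups over all 57 arrays with a mean-variance trend (50.2 residual degrees of freedom with the prior). Contrasts gave estimates ± SE, with Benjamini-Hochberg adjustment of the p-values over all genes and a threshold of 0.05. 8 genes in 3 comparisons were also tested by exact two-sided permutation (scipy 1.17.1). The fit was tested on simulated data. The number of arrays limits the precision, and no measure of error within an array was used.

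The members and gene lists were chosen with earlier results of these data known. Genes named are the 10 with the smallest p for the change, the 8 largest rises and falls against control, 16 genes named whatever their result, up to 4 per list with the largest change, and the 6 largest rises and falls between days in treated rats and between doses. Some list members picked by this rule are left out of the text. Every named gene outside the rule, mostly members of a count, was chosen after its values were seen. The 33 lists were p53 targets, kidney injury markers, immediate early genes, acute phase, chemokines, matrix, DNA replication, mitosis, NRF2, ER stress, DNA repair, 2 proximal tubule lists, fatty acid oxidation, distal tubule, collecting duct, cholesterol synthesis, clock, interferon, MHC class II, oxidative phosphorylation, very long genes, Wnt, and markers of 10 other cell types or tissues. Alternatives were other offsets, centring on the 75th percentile, quantile normalization, a stricter filter or none, averaging of probe sets per gene, fitting the compared groups alone, robust eBayes, array weights, the actin ratio as a covariate, a replicate block and leaving out each animal.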

Additional observations from a re-analysis of the deposited data

Results flagged for a closer look

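6 of 72 groups of values held an animal far from the others of its group, where chance gives about 1 in 20. Spp1 had 417.6 in control replicate 2 of day 26. Cdkn1a and Mdm2 had 37.3 and 214.9 in 1 mg/kg replicate 2 of day 26, and Mdm2 171.6 in control replicate 1 of day 8. Atf3 had 43.44 in 1 mg/kg replicate 3 of day 26, and Umod 1157 in 1 mg/kg replicate 3 of day 8.

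The difference between days 26 and 8 differed between 3 mg/kg and 1 mg/kg by limma's test of that difference for 1057 genes. Among the genes named whatever their result it was -1.638 for Lcn2, -1.855 for Clu, -0.4369 for Ccng1, 1.339 for Atf3, 4.66 for Umod and 1.26 for Sfrp2 (log2, 3 mg/kg minus 1 mg/kg).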

How the results depend on the processing

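The change of the 1 mg/kg effect had 0 called genes, 2 with quantile normalization (Spp1 and Ccng1), 1 with the actin covariate (Spp1), 1 with the replicate block (Spp1, adjusted p = 0.0494), and 0 to 1 without single animals. Day 8 calls were 61, 38 with quantile normalization, 4 with just the compared groups, 40 with array weights and 12 to 127 without single animals. Day 26 calls were 1, 0 with an offset of 64, with a filter at the 60th percentile and in the compared groups alone, 2 with array weights and 0 to 3 without single animals. Treated rats between the days gave 667 calls, 279 in the compared groups alone and 270 to 773 without single animals (270 and 287 without replicates 1 and 3 of day 8, 313 and 288 without replicates 1 and 3 of day 26). Control rats gave 149, 30 in the compared groups alone, 287 with array weights and 45 to 222 without single animals (78, 90 and 93 without replicates 2, 3 and 5 of day 8, 45 and 59 without replicates 1 and 4 of day 26). The dose difference gave 1057, 196 in the compared groups alone, 647 with the actin ratio and 700 to 1776 without single animals. The exact tests, on 8 genes chosen with earlier results known, gave 16 of 24, and 14 to 16 without single animals. Fitting the compared groups alone uses fewer samples and also the spread of those groups alone. For no setting was the cause of the change in counts tested. Values near 0 turned sign on day 26: Ccng1 was -0.006341 with 75th percentile centring and -0.007081 with the block, Umod 0.0002024 with array weights and 0.03651 with the block, and Clu -0.01191 with the actin ratio. Without single animals the day 26 values ran from -0.06309 to 0.06245 for Ccng1, -0.12 to 0.03998 for Umod, -0.02366 to 0.04879 for Clu, -0.1953 to 0.01499 for Timp1 and -0.02298 to 0.2184 for Sfrp2. The change ran from -0.5011 to 0.1398 for Egr1 and from -0.05219 to 0.2973 for Umod, whose day 8 value ran from -0.3091 to 0.04046. Same-numbered animals were not paired: the correlation of their deviations was -0.0992 to 0.259 over 27 pairs, 2 of them over 0.1. With the replicate block day 8 gave 86 calls, Clu among them (adjusted p = 0.032). The medians of these lists turned sign under another scaling: DNA replication, oxidative phosphorylation and adrenal on day 26, Wnt and inner medulla on day 8, interferon and lymphocyte for the change, and fatty acid oxidation. Signals under 16 limit Havcr1 in controls, Cxcl1, Capn13 and Apol3-ps1.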
